A study of Homo sapiens with 18 samples.

Results

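The ABC transporter family was followed through the established clear cell renal cancer line 786-O after knockdown of RBCK1, ANKRD35 or MITD1. Members were taken by symbol alone: every gene named ABC, a subfamily letter A to G and a number, limited to protein-coding entries where the table gave a gene type. This gave 45 of 58735 genes in the RBCK1 and ANKRD35 tables, and 46 of 29928 in the MITD1 table, which gives no gene type and also lists the pseudogene ABCC13. The members were divided into the 7 drug efflux transporters (ABCB1, ABCC1 to ABCC5 and ABCG2) and 38 others (39 in the MITD1 table). The labels name 6 groups of 3 libraries, shRBCK1 against shcontrol, siANKRD35 against sicontrol_for_siANKRD35 and siMITD1 against sicontrol_for_siMITD1. All groups were 786-O cells in RPMI-1640 with serum, with no drug named. The series title concerns the sensitivity of this cancer to sunitinib, a tyrosine kinase inhibitor. The labels do not say whether an shRNA line was a clone or a pool, and the columns of the ANKRD35 knockdown are named ShRNA where the titles say si.

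ABC proteins bind and hydrolyse ATP. Most use that energy to carry lipids, sterols, drugs, bile salts, peptides or cofactors across a membrane. ABCB1 (P-glycoprotein), ABCG2 (breast cancer resistance protein) and members of the ABCC group export drugs or their conjugates, and ABCB1 and ABCG2 carry tyrosine kinase inhibitors, sunitinib among them. Proximal tubule cells, from which clear cell renal carcinoma is thought to arise, use ABCB1 and several ABCC members to pass organic compounds into urine. The ABCA group moves lipids, and most of the ABCD group brings fatty acids into peroxisomes. ABCE1 and the ABCF proteins transport nothing and work in translation.

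Values are FPKM (fragments scaled to gene length and library size), scaled in each table separately, so tests were made within a table. Reads recovered from the values ran from 16346478 to 18648246 per library in the RBCK1 table and from 17502646 to 19034974 in the ANKRD35 table, and the library sizes behind the MITD1 values were 14176539 to 15489394. RBCK1 was 93.4% lower and MITD1 63.7% lower in their knockdowns, and ANKRD35 was at 0, 0 and 0.0332 FPKM in siANKRD35 libraries, against 753, 687 and 742 FPKM in control libraries. In the other tables ANKRD35 did not exceed 0.0392 FPKM. RBCK1 averaged 31.9 FPKM in shRBCK1 and 480 FPKM in shcontrol libraries, while the other control groups averaged 70.8 FPKM (ANKRD35 table) and 65.5 FPKM (MITD1 table), so its fall is set against a control well above them. Of 15 markers of a clear cell renal carcinoma line, 11 reached 1 FPKM in 3 or more libraries of the RBCK1, 10 in the ANKRD35 and 11 in the MITD1 table, PAX8, EPAS1, VIM and CDH2 in all 6 groups, while CA9, CUBN, LRP2 and NDUFA4L2 had group means under 1 FPKM throughout. The list summed to 834 to 858 FPKM in shRBCK1 and 1010 to 1026 FPKM in shcontrol libraries, to 1395 to 1704 FPKM in siANKRD35 and 1187 to 1224 FPKM in its control libraries, and to 1222 to 1240 FPKM in siMITD1 and 1100.2 to 1122 FPKM in its control libraries, without overlap in any comparison. The libraries of the ANKRD35 table nevertheless differed from the others under the same cell label: the cadherin CDH6 was listed at 0 in all 6 of them, against 13.5 to 28.6 FPKM as group means elsewhere, and the keratin KRT18 averaged 604 FPKM in siANKRD35 and 342 FPKM in control libraries, against 64.7 to 103 FPKM elsewhere. The fibroblast and neuronal surface gene THY1 averaged 40.6 FPKM in siANKRD35 and 35.4 FPKM in its control libraries, against 0.253 FPKM or less elsewhere. Markers of blood and endothelium were at or near 0 in all groups (CD3E at 0 throughout), apart from LAPTM5, which averaged 3.26 FPKM in shRBCK1 and 2.19 FPKM in shcontrol libraries, and 1.31 FPKM in siMITD1 and 4.31 FPKM in its control libraries. It was the 1 of 7 blood markers to reach 1 FPKM, and the list summed to 3.77 to 5.07 FPKM in shRBCK1 and 2.64 to 3.28 FPKM in shcontrol libraries, and to 1.65 to 2.27 FPKM in siMITD1 and 5.33 to 5.94 FPKM in its control libraries. The 8 fibroblast markers summed to 35.2 to 44.5 FPKM in siANKRD35 and 34.9 to 37.9 FPKM in its control libraries, nearly all of it THY1, and the part of these markers in the results was not tested. Whether the replicates were separate cultures is not stated, and p-values thus reflect no more than the library-to-library spread. In bulk RNA, fewer cells of a type and less RNA per cell cannot be told apart.

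Many members of the family were expressed too low to test. A gene was tested when 3 or more of the 6 libraries in a comparison reached 1 FPKM, and 21 members passed in the RBCK1, 20 in the ANKRD35 and 19 in the MITD1 table. Of the 45, 18 were tested in all 3 tables, 22 in at least 1 and 23 in none. The untested included ABCC2, the canalicular and tubular conjugate pump, at group means of 0.130 to 0.411 FPKM, and ABCG1, a sterol exporter, at 0.0256 FPKM or less. Group means of 15 members stayed under 0.1 FPKM throughout, and ABCA6, ABCA8 and ABCA9 had no read in any library. Close to the limit and inside it, by third-highest FPKM, were ABCA7 with 1.06 and ABCG2 with 1.55 in the RBCK1 table, ABCA1 with 1.59 in the ANKRD35 table, and ABCA3 with 1.052 and ABCA7 with 1.204 in the MITD1 table. Just outside were ABCB9 with 0.650 and ABCB6 with 0.369, then ABCG2 with 0.7497 and ABCB9 with 0.701, then ABCB9 with 0.974 and ABCG2 with 0.815, in the same order of tables. In fits with no filter, 1 of 20 members below the limit was called with RBCK1 knockdown, 1 of 19 with ANKRD35 knockdown and 1 of 21 with MITD1 knockdown, beside 2.67%, 1.74% and 8.71% of all genes below the limit.

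The most abundant members in the RBCK1 and ANKRD35 tables, ABCF1 and ABCE1, have no transport function. This order did not hold in the MITD1 table. In its control libraries ABCA1 averaged 17.5 FPKM, ABCE1 16.2 FPKM and ABCF1 0.111 FPKM. ABCF1, which stimulates translation initiation, averaged 38.4 ± 0.71 FPKM in shRBCK1 and 42.9 ± 2.0 FPKM in shcontrol libraries, and 37.1 ± 3.4 FPKM in siANKRD35 and 37.9 ± 1.3 FPKM in its control libraries (SD, n = 3 in every group here and below). ABCE1, which recycles ribosomes after termination, came next by its highest group mean, with means of 14.4 to 27.8 FPKM. The highest members of the ABCA, ABCC, ABCD and ABCG subfamilies were ABCA1, the cholesterol and phospholipid exporter (up to 17.5 FPKM), ABCC3, an exporter of glucuronides and bile salts (up to 14.5 FPKM), ABCD3, a peroxisomal importer (up to 11.9 FPKM), and ABCG2 (up to 1.63 FPKM).

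Control levels of many members lay several fold apart between the tables. Among the 18 members tested in every table, the highest control mean was over 2 times the lowest in 11, with a median ratio of 2.24; over all 9257 genes tested in every table the median ratio was 1.76 and 37% were over 2 times apart. The widest fold between knockdown and control means of any tested member was 2.11, for ABCB1 with ANKRD35 knockdown, where the knockdown was lower. ABCB1 entered that test through its control libraries alone. This fold within a comparison is not the same measure as a span over control groups. ABCA1 averaged 7.35 FPKM in shcontrol, 1.55 FPKM in sicontrol_for_siANKRD35 and 17.5 FPKM in sicontrol_for_siMITD1 libraries. ABCA3, which loads phospholipids into lamellar bodies of lung cells, ran the other way, with 2.03, 6.32 and 0.931 FPKM in the same groups. ABCC9, the sulfonylurea receptor SUR2 of ATP-sensitive potassium channels, averaged 4.0 FPKM in sicontrol_for_siANKRD35, against 0.233 FPKM in shcontrol and 0.0359 FPKM in sicontrol_for_siMITD1. ABCC3 was nearly level, at 12.96, 13.65 and 11.81 FPKM. These tables were scaled separately and no test was made across them.

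**Figure D1:**
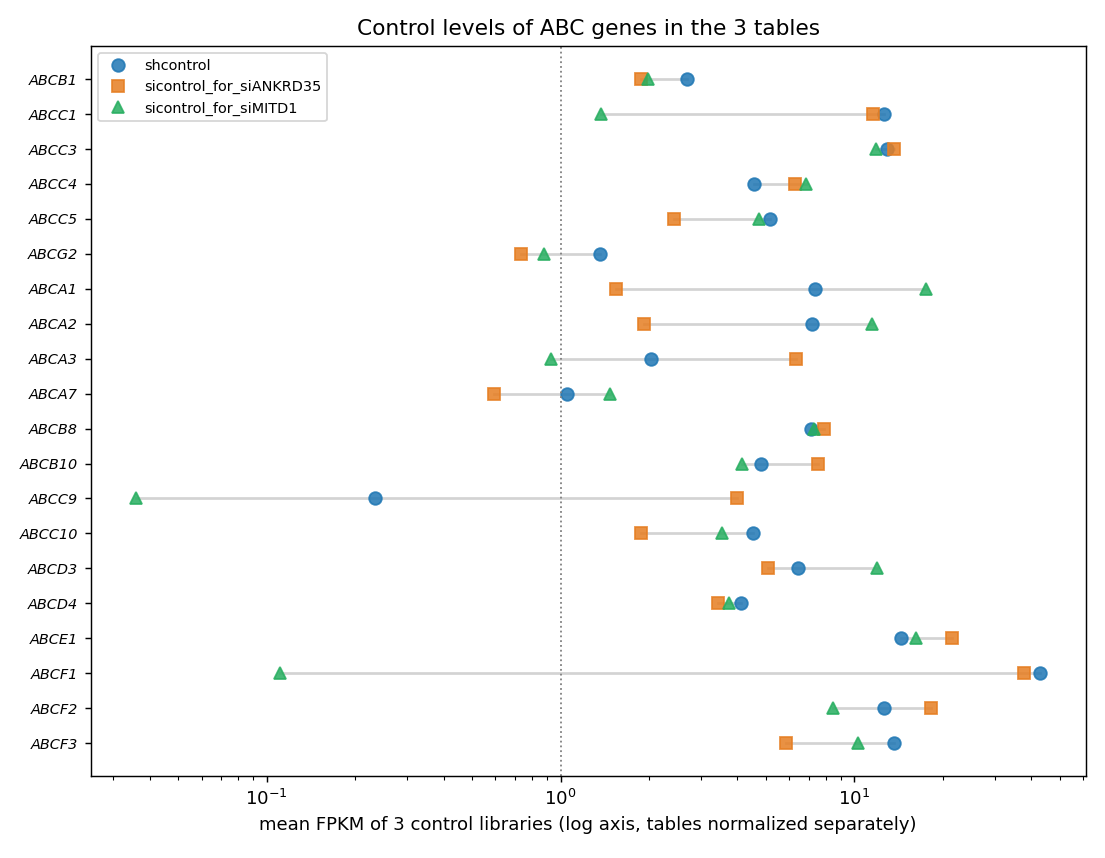
Mean FPKM of the 3 control libraries (log axis) of each table for 20 members tested in at least 1 table, grouped by role, with 1 symbol for each control group and a grey line over their span. ABCC3, ABCB8 and ABCD4 lie close together, while ABCA1 and ABCC9 are spread over several fold and ABCF1 is at 0.111 FPKM in the MITD1 table.

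A pair of members had values in the MITD1 table that set them apart from the other tables. ABCF1 averaged 0.211 FPKM in siMITD1 and 0.111 FPKM in its control libraries, 0.293% of the lower of the other control means, and was not tested there. ABCC1, the glutathione conjugate exporter MRP1, averaged 1.38 FPKM in those controls, 11.9% of the lower of the others, 12.6 and 11.6 FPKM. Genes at 5 FPKM or more in both other control groups were below 20% of that level in the MITD1 table in 185 of 5643 cases (3.28%). Within 1000000 bases of ABCF1 (GRCh38 chromosome 6, 29571376 to 31597179) it was 16 of 21. Within the same distance of ABCC1 (chromosome 16, 14949577 to 17143074) it was 5 of 5. Each count includes the member itself, which was chosen for its low value. The MITD1-table values of ABCF1 and ABCC1 are therefore uncertain, and what set the low values of these neighbourhoods was not tested.

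Across the family, the share of tested members called in either direction was near or below that of all genes in each comparison. Calls were made with limma-trend on log2(FPKM + 1) at a Benjamini-Hochberg adjusted p under 0.05 over all tested genes. With RBCK1 knockdown 9 of 21 tested members (42.9%) were called, 5 higher and 4 lower, beside 49.1% of all 12227 genes tested (24.1% higher, 24.9% lower). With ANKRD35 knockdown 7 of 20 (35%) were called, 1 higher (5%) and 6 lower (30%). The 6 include ABCB1, which entered the test through its control libraries alone. Of all 11890 genes tested there, 36.3% were called (19.4% higher, 16.9% lower). With MITD1 knockdown 10 of 19 (52.6%) were called, 4 higher and 6 lower, beside 65.6% of 10415 genes (30% higher, 35.6% lower). Median log2 changes of the tested members were −0.01, −0.15 and −0.06, beside 0.01, 0.03 and −0.03 for all genes. Knockdown and control libraries did not overlap for 15 of 21, 11 of 20 and 11 of 19 members, beside 59%, 52.2% and 70.4% of all genes. By this measure the share of members was above that of all genes with RBCK1 knockdown and below it with MITD1 knockdown. In all, 17 members were called in at least 1 comparison, ABCA3 and ABCC3 in all 3, and ABCB10, ABCC4, ABCC5, ABCD4 and ABCG2 were tested but never called.

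**Figure D2:**
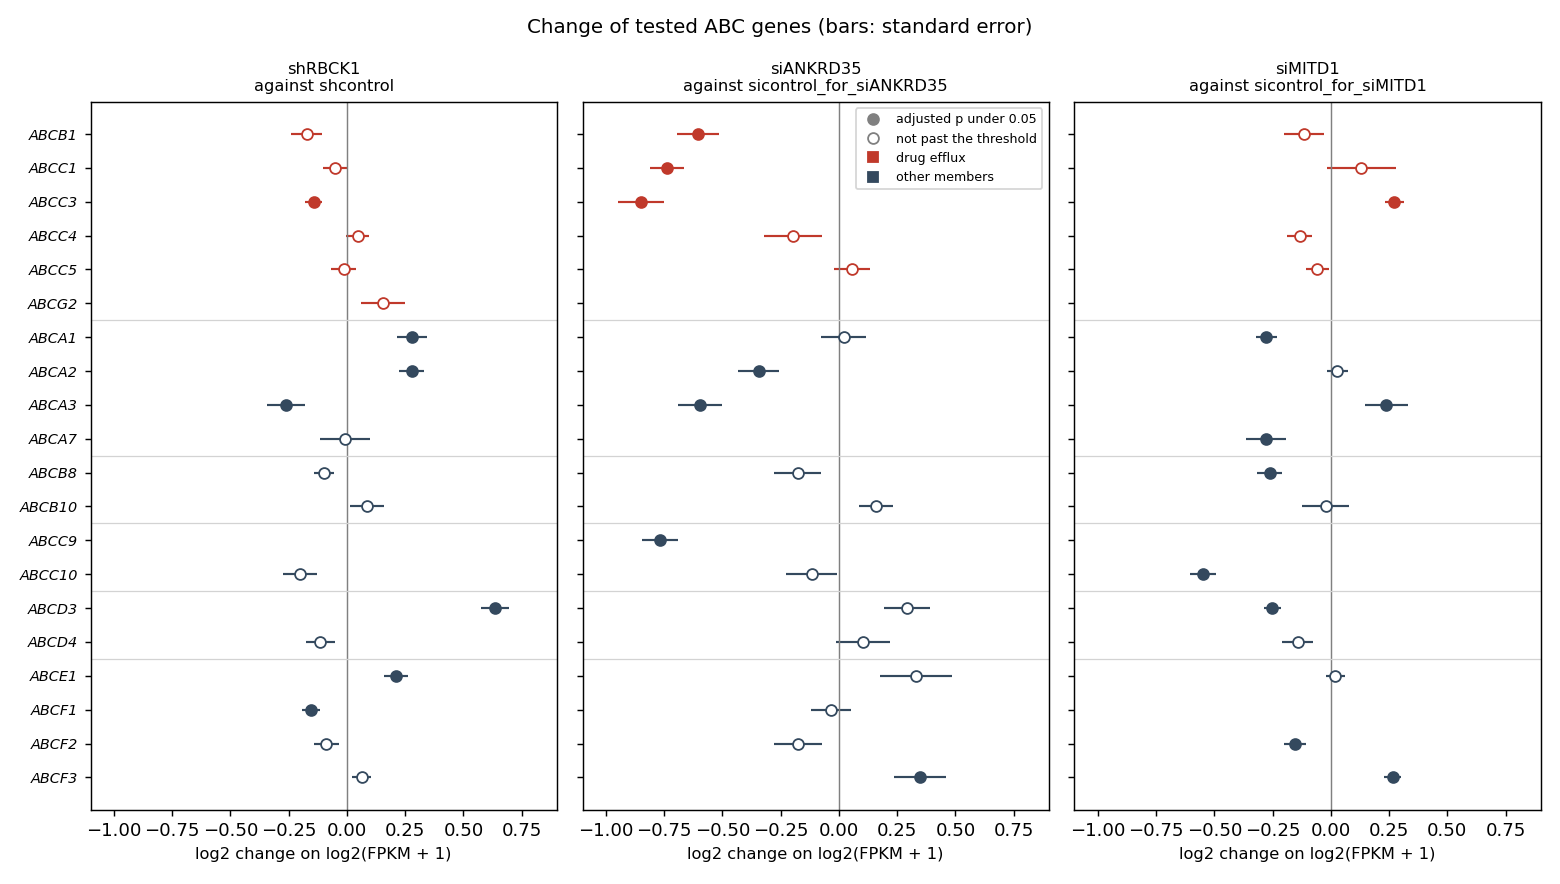
Log2 change, knockdown minus its own control, with its standard error, for the tested members reported here, in the 3 comparisons, grouped by role; filled points passed the test and red points are drug efflux members. ABCB1, ABCC1 and ABCC3 lie between −0.60 and −0.85 with ANKRD35 knockdown, and all 6 efflux points with RBCK1 knockdown lie between −0.17 and 0.16.

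Among drug efflux members, 1 of 6 tested (16.7%) was called with RBCK1 knockdown, beside 49.1% of all genes tested. ABCC3 (ENSG00000108846, chromosome 17, 50634777 to 50692252) measured 11.99, 11.29 and 11.63 FPKM in shRBCK1 libraries and 12.85, 13.28 and 12.74 FPKM in shcontrol libraries. The groups did not overlap, and the fall was 10.2% (log2 change −0.14, SE 0.038, limma adjusted p = 0.0173); without shRBCK1 replicate 2 the adjusted p was 0.0526 and without shcontrol replicate 2 it was 0.0657. ABCB1 (ENSG00000085563, chromosome 7, 87503633 to 87713323) measured 2.37, 2.24 and 2.19 FPKM in shRBCK1 libraries, against 2.46, 2.92 and 2.68 FPKM in shcontrol libraries. All knockdown values lay below all control values, and the difference missed the threshold (log2 change −0.17, SE 0.067, limma adjusted p = 0.0661), although without shcontrol replicate 1 it passed (adjusted p = 0.0480). ABCG2 (ENSG00000118777, chromosome 4, 88090264 to 88231322) measured 1.75, 1.55 and 1.58 FPKM in shRBCK1 libraries, against 1.51, 1.49 and 1.09 FPKM in shcontrol libraries. These groups did not overlap either, and the log2 change of 0.16 (SE 0.094) did not pass (limma adjusted p = 0.209). ABCC1, ABCC4, an exporter of cyclic nucleotides and prostaglandins, and ABCC5, also an exporter of cyclic nucleotides, had log2 changes of −0.05, 0.05 and −0.01 with overlapping groups. The summed FPKM of the 7 efflux members was 36.3 to 38.8 in shRBCK1 and 38.8 to 40.3 in shcontrol libraries.

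With ANKRD35 knockdown ABCC3, ABCC9, ABCC1, ABCB1 and ABCA3 had log2 decreases wider than any tested member showed in the other comparisons. The summed FPKM of the efflux members was 22.7 to 24.5 in siANKRD35 and 36.2 to 37.2 in control libraries. The other 38 members summed to 130.5 to 136.2 FPKM in siANKRD35 and 130.7 to 133.4 FPKM in control libraries. Abundant members weigh most in such sums. In the efflux sum ABCC1 averaged 6.57 FPKM in siANKRD35 and 11.6 FPKM in control libraries, and ABCC3 7.16 and 13.6 FPKM. In the other sum ABCF1 averaged 37.1 and 37.9 FPKM and ABCE1 27.8 and 21.5 FPKM in the same order. The falls of ABCC9 and ABCA3 do not show in that sum. Of 5 efflux members tested, ABCC1 and ABCC3 were lower, as was ABCB1, which entered the test through its control libraries alone. The median log2 change of the 5 was −0.60, which is ABCB1's own value, beside −0.03 for the 15 other members. Of those 15, 4 (26.7%) were called, beside 36.3% of all genes tested. With no filter on low values the efflux median was −0.20, because ABCC2 and ABCG2 (log2 changes −0.04 and 0.005) joined. The log2 changes of the 5 themselves stayed the same there. With limma-voom on recovered reads the median was −0.86.

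ABCC1 (ENSG00000103222, chromosome 16, 15949577 to 16143074) measured 6.44, 7.01 and 6.26 FPKM in siANKRD35 libraries, against 11.2, 11.8 and 11.8 FPKM in control libraries. Every knockdown library lay well below every control library, and the fall was 43.4% (log2 change −0.74, SE 0.073, limma adjusted p = 0.00127). Reads behind it were 2581 in the knockdown and 4883 in the control group. ABCC3 measured 7.60, 6.10 and 7.78 FPKM in siANKRD35 libraries, against 14.3, 13.5 and 13.1 FPKM in control libraries. It was 47.5% lower, also without overlap, and lowest in knockdown replicate 2 (log2 change −0.85, SE 0.10, limma adjusted p = 0.00183). ABCB1 measured 0.781, 0.934 and 0.951 FPKM in siANKRD35 libraries, against 2.04, 1.71 and 1.86 FPKM in control libraries. No knockdown library reached 1 FPKM, so the gene had to differ to be tested at all; the fitted log2 change of −0.60 (SE 0.091, limma adjusted p = 0.00367) rests on 268 knockdown and 602 control reads.

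The other efflux members did not pass with ANKRD35 knockdown. ABCC4 (chromosome 13, 95019829 to 95301475) measured 4.81, 6.66 and 4.75 FPKM in siANKRD35 libraries, against 6.13, 6.71 and 6.0 FPKM in control libraries. Knockdown replicate 2 stood within the control range and the others below it (log2 change −0.20, SE 0.125, limma adjusted p = 0.257); without that library the log2 change was −0.33 and passed (adjusted p = 0.00636). ABCC5 (chromosome 3, 183919934 to 184018015) averaged 2.57 ± 0.12 FPKM in siANKRD35 and 2.44 ± 0.12 FPKM in control libraries. ABCG2, untested here, averaged 0.751 ± 0.25 FPKM in siANKRD35 and 0.735 ± 0.11 FPKM in control libraries.

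**Figure D3:**
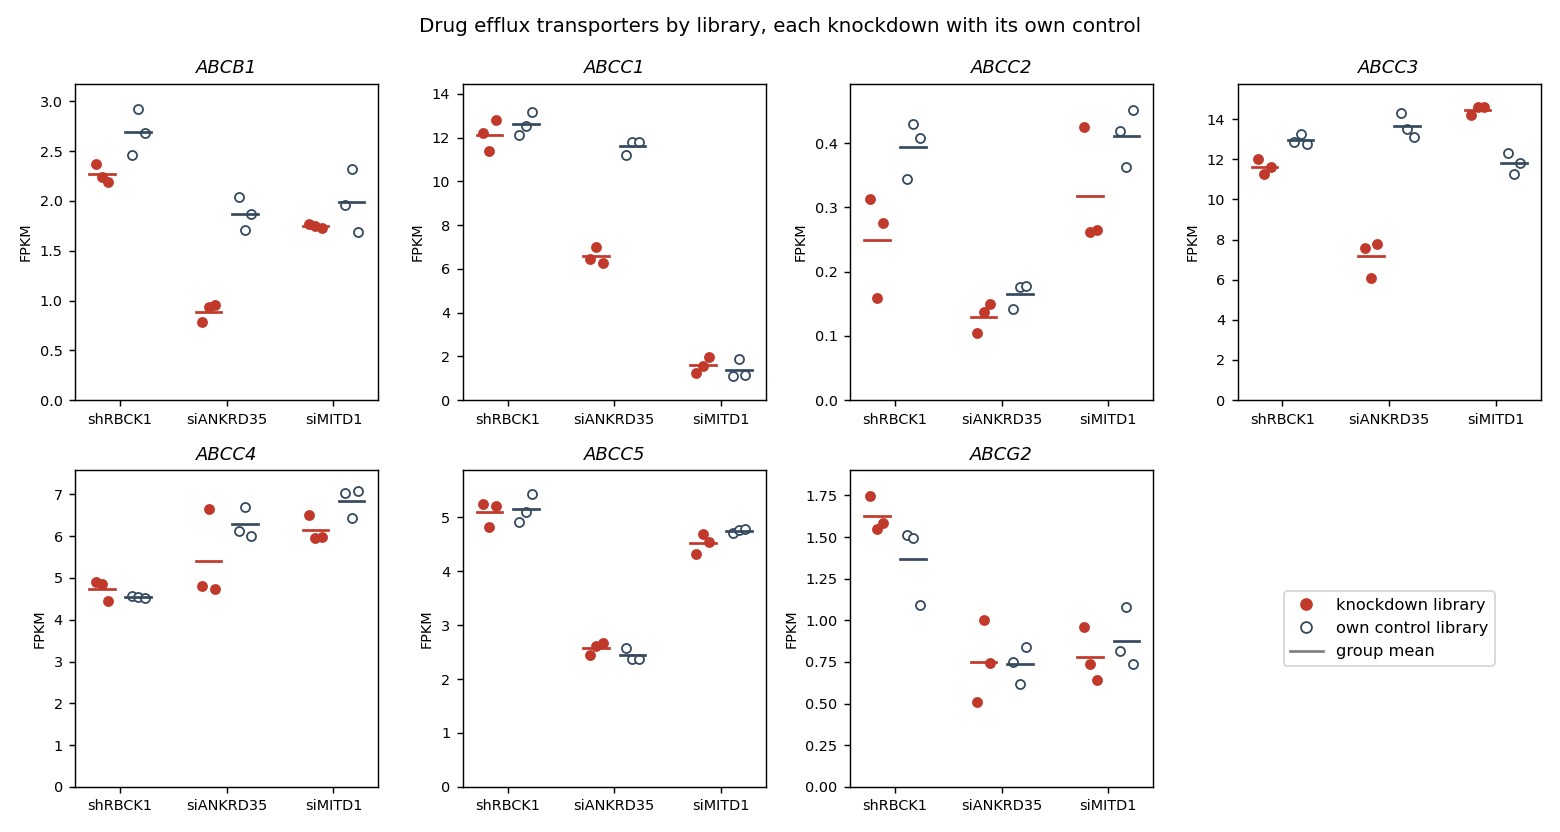
FPKM of the 7 drug efflux members in each library, knockdown (filled, left) and its own control (open, right), with the group mean as a line, for the 3 comparisons; each y axis starts at 0. ABCB1, ABCC1 and ABCC3 are lower in all 3 siANKRD35 libraries than in all their controls, and ABCC1 is under 2 FPKM in all 6 libraries of the MITD1 table.

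With MITD1 knockdown 1 of 5 efflux members tested (20%) was called, beside 65.6% of all genes tested, and that 1 rose. ABCC3 measured 14.2, 14.6 and 14.6 FPKM in siMITD1 libraries, against 12.3, 11.3 and 11.8 FPKM in control libraries. It was 22.5% higher, without overlap (log2 change 0.27, SE 0.042, limma adjusted p = 0.000482). So ABCC3 had log2 changes of −0.14, −0.85 and 0.27 with knockdown of RBCK1, ANKRD35 and MITD1, each against its own control; the differences between these changes were not tested. ABCB1 measured 1.77, 1.75 and 1.73 FPKM in siMITD1 libraries, against 1.96, 2.32 and 1.68 FPKM in control libraries, with overlap and no call (log2 change −0.12, SE 0.085, limma adjusted p = 0.257). ABCC4 averaged 6.15 ± 0.31 FPKM in siMITD1 and 6.85 ± 0.36 FPKM in control libraries and missed the threshold (log2 change −0.13, SE 0.055, limma adjusted p = 0.0584). That call turned on single libraries, passing without siMITD1 replicate 1 (adjusted p = 0.0362) or without control replicate 2 (adjusted p = 0.0299). ABCC5 averaged 4.52 ± 0.19 FPKM in siMITD1 and 4.75 ± 0.038 FPKM in control libraries. ABCC1 averaged 1.59 ± 0.38 FPKM in siMITD1 and 1.38 ± 0.45 FPKM in control libraries, and neither was called. ABCC1, whose values in this table are uncertain as described above, is among the 5 tested. ABCG2, untested, averaged 0.779 ± 0.16 FPKM in siMITD1 and 0.878 ± 0.18 FPKM in control libraries.

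Gene length moved with the ANKRD35 result. Across the 11890 genes of that comparison Spearman's rho between log2 change and gene length was −0.41 (a description across genes, which are not independent replicates), beside 0.03 for RBCK1 and 0.09 for MITD1 knockdown. Genes over 6000 bases had a median log2 change of −0.14 (4069 genes) and genes under 2000 bases one of 0.26 (1946 genes). ABC genes are long: the tested members had a median of 7696.5 bases, beside 4567 for all genes, and 16 of the 20 exceeded the latter value. With a loess correction of each library for gene length, ABCC1 had a log2 change of −0.60 (limma adjusted p = 0.00245) and ABCC3 −0.64 (adjusted p = 0.00916). ABCB1 had −0.54 (adjusted p = 0.00653), ABCC9 −0.51 (adjusted p = 0.00424) and ABCA3 −0.45 (adjusted p = 0.0195). All of these were still called, ABCB1 again after entering through its control libraries alone. ABCA2 lost its call under the length correction (log2 change −0.09, adjusted p = 0.528), and ABCC5 gained one (log2 change 0.31, adjusted p = 0.0247). The median of the 20 members became 0.01. Library siANKRD35 replicate 2 stood apart, with correlations to the others of its group down to 0.97, against 0.992 or more among control libraries. Without it ABCC1, ABCC3, ABCB1 and ABCC9 had log2 changes of −0.78, −0.75, −0.62 and −0.79.

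**Figure D4:**
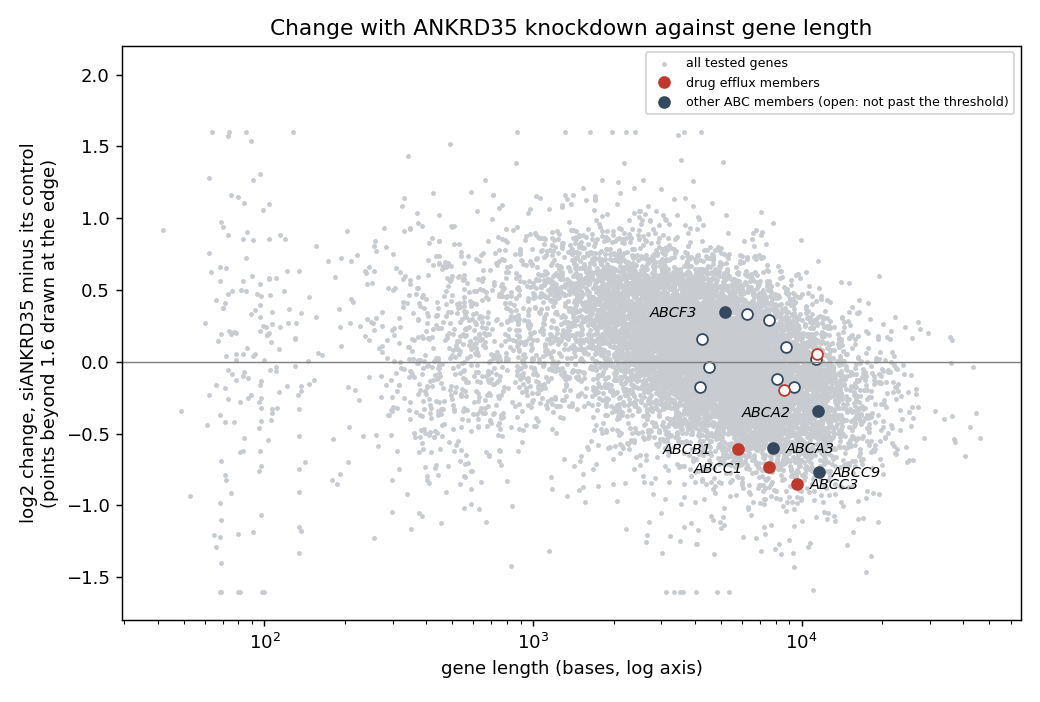
Log2 change with ANKRD35 knockdown against gene length (log axis) for all tested genes (grey) and 18 tested ABC members (red: drug efflux, dark: others, filled: past the threshold and named). Long genes lie lower on average, and ABCC1, ABCC3, ABCB1, ABCC9 and ABCA3 lie below −0.5.

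Among the ABCA lipid transporters, 4 of 12 were tested in the RBCK1 and MITD1 tables and 3 in the ANKRD35 table. With RBCK1 knockdown the cholesterol exporter ABCA1 (chromosome 9, 104781002 to 104928237) and ABCA2, a transporter of endosomes and lysosomes linked to sphingolipid and sterol handling, were higher. ABCA1 measured 10.04, 8.406 and 8.996 FPKM in shRBCK1 libraries, against 6.99, 7.52 and 7.56 FPKM in shcontrol libraries. The groups were apart (log2 change 0.28, SE 0.065, limma adjusted p = 0.0099). ABCA2 measured 8.40, 8.69 and 9.62 FPKM in shRBCK1 libraries, against 7.14, 7.11 and 7.24 FPKM in shcontrol libraries (log2 change 0.28, SE 0.053, limma adjusted p = 0.00396). With MITD1 knockdown ABCA1 was lower, at 15.2, 13.6 and 14.2 FPKM in siMITD1 libraries, against 17.9, 17.3 and 17.4 FPKM in control libraries (log2 change −0.28, SE 0.045, limma adjusted p = 0.000708). With ANKRD35 knockdown ABCA1 averaged 1.59 ± 0.25 FPKM in siANKRD35 and 1.55 ± 0.081 FPKM in control libraries and was not called. ABCA2 measured 1.32, 1.14 and 1.46 FPKM in siANKRD35 libraries, against 2.03, 1.89 and 1.85 FPKM in control libraries (log2 change −0.34, SE 0.089, limma adjusted p = 0.0231). That call was also lost without any of the 3 control libraries (adjusted p = 0.0932, 0.0762 and 0.0692 without replicates 1, 2 and 3). ABCA7, a relative of ABCA1 that moves phospholipids, measured 0.966, 1.06 and 1.07 FPKM in siMITD1 libraries, against 1.602, 1.204 and 1.606 FPKM in control libraries (log2 change −0.28, SE 0.086, limma adjusted p = 0.0199). It was no longer called without siMITD1 replicate 1 (adjusted p = 0.0599), control replicate 1 (0.0698) or control replicate 3 (0.0679).

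ABCA3 (ENSG00000167972, chromosome 16, 2275881 to 2340746) was called in all 3 comparisons, lower with RBCK1 and ANKRD35 knockdown and higher with MITD1 knockdown. It measured 4.36, 3.48 and 3.70 FPKM in siANKRD35 libraries, against 6.10, 6.06 and 6.79 FPKM in control libraries. The fall of 39.1% (log2 change −0.60, SE 0.095, limma adjusted p = 0.00436) held without each library in turn. In the other comparisons its level was near the testing limit: it averaged 1.53 ± 0.13 FPKM in shRBCK1 and 2.03 ± 0.22 FPKM in shcontrol libraries (log2 change −0.26, limma adjusted p = 0.0325), and 1.28 ± 0.22 FPKM in siMITD1 and 0.931 ± 0.11 FPKM in control libraries (log2 change 0.24, limma adjusted p = 0.0473). Both of these calls were fragile. Adjusted p reached 0.0941 without shRBCK1 replicate 2, 0.0943 without shcontrol replicate 1 and 0.1001 without shcontrol replicate 3, with 0.0532 and 0.0570 without shRBCK1 replicates 1 and 3, and in the MITD1 comparison it was 0.0539 to 0.154 without any library but siMITD1 replicate 1. Its promoter is shown as that of a member called in every comparison: RefSeq's 250 bases before and 50 after the start, minus strand, GRCh38.p14, chr16:2340679-2340978, with capitals for 2 GC boxes (GGGCGG on either strand) and 1 antioxidant response core (TGACNNNGC).
ABCA3: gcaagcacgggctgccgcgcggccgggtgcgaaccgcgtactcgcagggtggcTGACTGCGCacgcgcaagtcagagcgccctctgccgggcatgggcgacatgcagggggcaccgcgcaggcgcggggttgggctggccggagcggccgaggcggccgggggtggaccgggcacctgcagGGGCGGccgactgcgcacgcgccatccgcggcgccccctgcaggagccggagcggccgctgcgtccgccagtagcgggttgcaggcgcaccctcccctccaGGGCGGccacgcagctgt
Among all 35116 RefSeq promoters of that length, 45.0% hold a GC box and 13.3% the antioxidant response core, and a match of letters is no evidence of binding.

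ABCC9 and ABCC10 were the members of the rest of the ABCC group that could be tested. ABCC9 (ENSG00000069431, chromosome 12, 21797401 to 21942529) measured 1.81, 2.04 and 1.97 FPKM in siANKRD35 libraries, against 3.94, 4.20 and 3.86 FPKM in control libraries. It was 51.5% lower, with 1170 reads in knockdown and 2584 in control libraries and no overlap (log2 change −0.77, SE 0.077, limma adjusted p = 0.0013). Its channel partner KCNJ8, a pore subunit, was tested in the same table alone, at 2.82 ± 0.32 FPKM in siANKRD35 and 2.53 ± 0.28 FPKM in control libraries (log2 change 0.11, limma adjusted p = 0.413). In the RBCK1 table ABCC9 was below the testing limit, at 0.0607 ± 0.028 FPKM in shRBCK1 and 0.233 ± 0.042 FPKM in shcontrol libraries (38 and 136 reads), and in a fit with no filter its adjusted p was 0.0230. The ABCC9 promoter is shown as the one with the lowest GC content of the 3 printed, 49.7%, against a median of 58.7% over all promoters; chr12:21941377-21941676, minus strand, GRCh38.p14, with its only motif match, a GC box, in capitals; RefSeq's window lies inside the gene as the table lists it, downstream of the listed start.
ABCC9: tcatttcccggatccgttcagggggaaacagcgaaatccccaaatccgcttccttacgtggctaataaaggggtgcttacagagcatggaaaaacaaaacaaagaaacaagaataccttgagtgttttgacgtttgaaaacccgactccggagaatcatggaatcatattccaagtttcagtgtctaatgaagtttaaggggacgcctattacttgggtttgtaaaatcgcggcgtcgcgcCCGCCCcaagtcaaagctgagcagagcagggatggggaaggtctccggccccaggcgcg
ABCC10 (MRP7, chromosome 6, 43427366 to 43450430), an exporter of lipophilic anions and some anticancer drugs that the efflux list did not hold, was lower with MITD1 knockdown. It measured 2.14, 2.10 and 2.06 FPKM in siMITD1 libraries, against 3.53, 3.43 and 3.64 FPKM in control libraries. The fall of 40.6% was the largest of any tested member in that comparison (log2 change −0.55, SE 0.054, limma adjusted p = 3.51e-05). It averaged 3.80 ± 0.24 FPKM in shRBCK1 and 4.53 ± 0.47 FPKM in shcontrol libraries, without overlap and just short of a call (limma adjusted p = 0.0538), and 1.65 ± 0.27 FPKM in siANKRD35 and 1.87 ± 0.22 FPKM in control libraries.

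The mitochondrial ABCB transporters serve haem and iron-sulfur metabolism. ABCB8, of the inner membrane potassium channel and iron export, was lower with MITD1 knockdown, at 5.91, 5.94 and 5.87 FPKM in siMITD1 libraries, against 6.77, 7.39 and 7.71 FPKM in control libraries (log2 change −0.26, SE 0.053, limma adjusted p = 0.00227). ABCB10, which supports haem synthesis, was not called in any comparison, with log2 changes of 0.09, 0.16 and −0.02. Among 18 haem and iron-sulfur partner genes, 17 were tested with RBCK1 knockdown (10 higher, 1 lower), 18 with ANKRD35 knockdown (12 higher) and 18 with MITD1 knockdown (3 higher, 11 lower), with median log2 changes of 0.18, 0.39 and −0.22. Over all tested genes, 24.1% were called higher and 24.9% lower with RBCK1 knockdown. The shares were 19.4% and 16.9% with ANKRD35 knockdown, and 30% and 35.6% with MITD1 knockdown. The haem and iron-sulfur list was not refitted with the length correction. With MITD1 knockdown the mitochondrial carrier SLC25A39 averaged 64.7 ± 1.3 FPKM in siMITD1 and 115 ± 3.3 FPKM in control libraries (log2 change −0.82, limma adjusted p = 1.68e-07). CPOX, which makes protoporphyrinogen, averaged 12.5 ± 0.11 FPKM in siMITD1 and 24.4 ± 1.4 FPKM in control libraries (log2 change −0.91, limma adjusted p = 7.9e-07).

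In the peroxisomal and lysosomal ABCD group, ABCD3 (PMP70, ENSG00000117528, chromosome 1, 94418455 to 94518666) imports branched chain and dicarboxylic acids into peroxisomes. ABCD3 had the largest change of any tested member with RBCK1 knockdown. It measured 11.1, 10.3 and 10.2 FPKM in shRBCK1 libraries, against 5.90, 6.58 and 6.82 FPKM in shcontrol libraries. Every knockdown library was above every control library, a rise of 63.8% (log2 change 0.64, SE 0.060, limma adjusted p = 0.000135; 4333 knockdown and 2440 control reads). With MITD1 knockdown it was lower, at 9.74, 9.91 and 9.93 FPKM in siMITD1 libraries, against 11.8, 12.2 and 11.8 FPKM in control libraries (log2 change −0.25, SE 0.037, limma adjusted p = 0.000366). With ANKRD35 knockdown it averaged 6.46 ± 0.89 FPKM in siANKRD35 and 5.07 ± 0.20 FPKM in control libraries and was not called (log2 change 0.29, limma adjusted p = 0.057). Its promoter is shown because of that largest rise: chr1:94418139-94418438, plus strand, GRCh38.p14, GC content 75.0%, with 4 GC boxes in capitals; RefSeq's window ends before the gene start listed in the table.
ABCD3: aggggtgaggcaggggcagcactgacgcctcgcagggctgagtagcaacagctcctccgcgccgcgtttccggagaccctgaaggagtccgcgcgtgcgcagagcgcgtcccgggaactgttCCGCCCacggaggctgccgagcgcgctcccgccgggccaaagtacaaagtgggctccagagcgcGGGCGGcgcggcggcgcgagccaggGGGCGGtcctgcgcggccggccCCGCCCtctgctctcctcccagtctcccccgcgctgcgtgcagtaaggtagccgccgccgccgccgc
A GC box was present in 25 of the 53 RefSeq promoters of family members, beside 45.0% of all 35116 promoters. Among promoters of tested members it was 16 of 25. These counts include several starts for some genes. ABCD4, which works with LMBRD1 in the release of vitamin B12 from lysosomes, had log2 changes of −0.11, 0.10 and −0.14 and no call. The partner counts that follow stand beside 49.1%, 36.3% and 65.6% of all tested genes called with RBCK1, ANKRD35 and MITD1 knockdown. Among the 16 peroxisome partner genes, all tested, 6 were higher and 1 lower with RBCK1 knockdown, 3 higher and 1 lower with ANKRD35 knockdown, and 4 higher and 6 lower with MITD1 knockdown (median log2 changes 0.09, 0.03 and −0.04). In the last, the acyl-CoA synthetase ACSL4 averaged 30.5 ± 1.2 FPKM in siMITD1 and 22.8 ± 0.72 FPKM in control libraries (log2 change 0.40, limma adjusted p = 3.43e-05), and PEX13, of the import machinery, 8.03 ± 0.29 FPKM in siMITD1 and 5.47 ± 0.41 FPKM in control libraries (log2 change 0.48, limma adjusted p = 0.000104). Of 8 cobalamin partners tested, 3 were higher with RBCK1 knockdown, 2 higher and 2 lower with ANKRD35 knockdown, and 2 higher and 3 lower with MITD1 knockdown (medians 0.10, 0.12 and −0.14). MMADHC, a cobalamin trafficking protein, averaged 69.4 ± 3.7 FPKM in siMITD1 and 56.5 ± 1.5 FPKM in control libraries, and its interactor MMACHC 1.98 ± 0.11 FPKM in siMITD1 and 2.93 ± 0.083 FPKM in control libraries (log2 changes 0.29 and −0.40, limma adjusted p = 0.000323 and 0.000396).

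**Figure D5:**
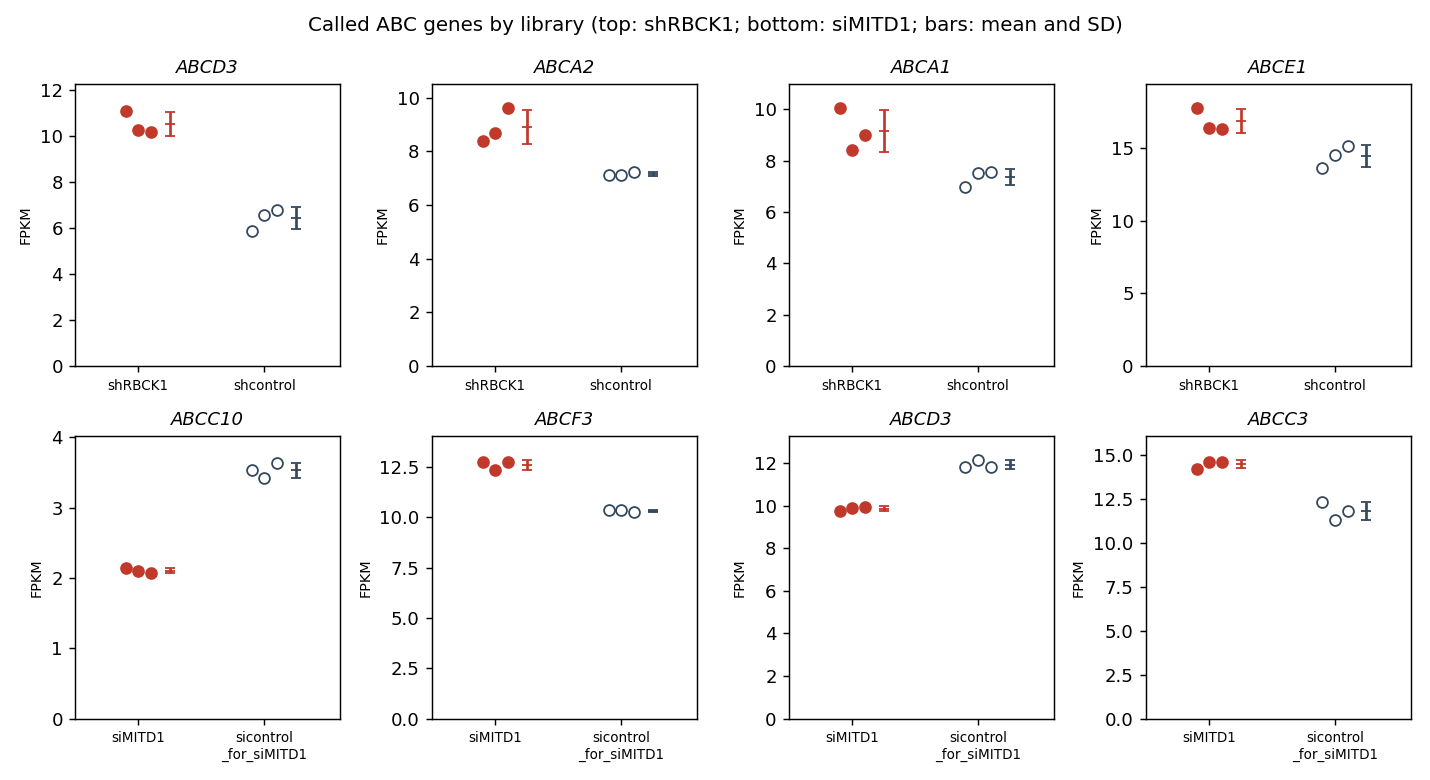
FPKM by library of 4 called members in the RBCK1 comparison (top) and in the MITD1 comparison (bottom), knockdown left and control right, with mean and SD (n = 3); y axes start at 0. ABCD3 is higher in shRBCK1 libraries and lower in siMITD1 libraries than in their own controls, and in each panel the groups do not overlap.

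The ABCE and ABCF members, which act at the ribosome, showed changes of 0.35 or less on the log2 scale. ABCE1 measured 17.8, 16.4 and 16.3 FPKM in shRBCK1 libraries, against 13.6, 14.5 and 15.1 FPKM in shcontrol libraries (log2 change 0.21, SE 0.051, limma adjusted p = 0.0117). ABCE1 shares exonic bases with OTUD4 and ANAPC10 on the opposite strand, and the strand used in counting is not given in the sources used here. With ANKRD35 knockdown it measured 22.2, 34.9 and 26.3 FPKM in siANKRD35 libraries, against 20.9, 22.6 and 21.1 FPKM in control libraries, with replicate 2 highest and no call (limma adjusted p = 0.132). ABCF1 measured 39.2, 37.9 and 38.2 FPKM in shRBCK1 libraries, against 45.1, 42.3 and 41.3 FPKM in shcontrol libraries, without overlap (log2 change −0.15, SE 0.040, limma adjusted p = 0.0152); the call was lost with quantile normalization (adjusted p = 0.114). ABCF3 (chromosome 3, 184186023 to 184194012), a poorly known relative of the yeast regulator of the GCN2 kinase pathway Gcn20, was higher with MITD1 knockdown, at 12.7, 12.3 and 12.8 FPKM in siMITD1 libraries, against 10.4, 10.4 and 10.2 FPKM in control libraries (log2 change 0.27, SE 0.037, limma adjusted p = 0.000243). It was the only member called higher with ANKRD35 knockdown, at 8.48, 6.4 and 8.37 FPKM in siANKRD35 libraries, against 5.60, 5.87 and 6.05 FPKM in control libraries (log2 change 0.35, SE 0.111, limma adjusted p = 0.0468). Leaving out any library but siANKRD35 replicate 2 ended that call, with adjusted p = 0.105 and 0.144 without knockdown replicates 1 and 3, and 0.145, 0.126 and 0.108 without control replicates 1, 2 and 3. Translation partners are set beside 49.1%, 36.3% and 65.6% of all tested genes called with RBCK1, ANKRD35 and MITD1 knockdown. Of 14 translation partners tested, 3 were higher and 4 lower with RBCK1 knockdown, 3 higher and 2 lower with ANKRD35 knockdown, and 7 higher and 3 lower with MITD1 knockdown (median log2 changes −0.02, 0.03 and 0.06). In the last, subunits of the initiation factor eIF2 were higher: EIF2S2 averaged 129 ± 4.3 FPKM in siMITD1 and 97.3 ± 2.0 FPKM in control libraries, and EIF2S3 94.4 ± 1.0 FPKM in siMITD1 and 78.6 ± 0.49 FPKM in control libraries (limma adjusted p = 8.92e-06 and 2.14e-05).

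Genes that regulate or work beside the transporters were called in both directions. Over all tested genes, 49.1% were called with RBCK1, 36.3% with ANKRD35 and 65.6% with MITD1 knockdown. Of the lipid and sterol efflux partners, 5 of 12 tested were higher and 4 lower with RBCK1 knockdown, 2 of 14 higher and 5 lower with ANKRD35 knockdown, and 4 of 11 higher and 2 lower with MITD1 knockdown, with median log2 changes of −0.02, −0.10 and −0.01. NPC1, which moves cholesterol out of lysosomes, averaged 20.7 ± 0.67 FPKM in shRBCK1 and 27.2 ± 0.64 FPKM in shcontrol libraries (log2 change −0.38, limma adjusted p = 0.000168). Of the regulators of efflux genes, 3 of 12 were higher and 5 lower with RBCK1 knockdown, 1 of 11 higher and 4 lower with ANKRD35 knockdown, and 6 of 12 higher and 3 lower with MITD1 knockdown (medians −0.07, −0.19 and 0.07). PPARG, a lipid-sensing nuclear receptor, averaged 15.7 ± 0.47 FPKM in siMITD1 and 7.53 ± 0.11 FPKM in control libraries, and EPAS1, the hypoxia factor HIF-2 alpha, 61.3 ± 2.0 FPKM in siMITD1 and 38.7 ± 0.37 FPKM in control libraries (log2 changes 0.97 and 0.65, limma adjusted p = 2.78e-07 and 6.74e-07).

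Glutathione and phase II genes supply the conjugates that ABCC proteins export. With RBCK1 knockdown 6 of 18 tested were higher and 3 lower, with ANKRD35 knockdown 4 of 16 higher and 2 lower, and with MITD1 knockdown 4 of 17 higher and 8 lower (medians 0.05, 0.18 and −0.10). For this list and the next, the shares of all tested genes called were 49.1%, 36.3% and 65.6% in the same order. MGST1, a microsomal glutathione transferase, averaged 39.2 ± 1.7 FPKM in siMITD1 and 20.6 ± 1.2 FPKM in control libraries, while GCLM, the modifier subunit of the enzyme that starts glutathione synthesis, averaged 23.9 ± 0.81 FPKM in siMITD1 and 32.7 ± 0.15 FPKM in control libraries (log2 changes 0.90 and −0.44, limma adjusted p = 1.09e-06 and 8.17e-06). A list of drug carriers and other resistance-linked proteins outside the ABC family, among them the vault protein MVP and the lysosomal LAMP1 and LAMP2, was higher in 9 of 14 and lower in 2 with RBCK1 knockdown, higher in 2 of 13 and lower in 3 with ANKRD35 knockdown, and higher in 2 of 14 and lower in 8 with MITD1 knockdown (medians 0.19, −0.08 and −0.22). SLCO4A1, an organic anion carrier, averaged 56.1 ± 1.7 FPKM in shRBCK1 and 40.8 ± 1.8 FPKM in shcontrol libraries, and the lysosomal membrane protein LAMP2 58.3 ± 1.3 FPKM in shRBCK1 and 47.1 ± 1.2 FPKM in shcontrol libraries (log2 changes 0.45 and 0.30, limma adjusted p = 0.000125 and 0.000284).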

How the data were processed

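RNA-seq of 18 libraries of 786-O cells was analysed; groups and replicate numbers came from the sample titles. The FPKM values were used as deposited, in 3 tables that the authors normalized separately; aligner, counter, annotation release and counting strand are not given in the sources used here. Per the labels' protocols the library kit was directional. Per the submitters' processing notes the build was mm10, a mouse build, yet the RBCK1 and ANKRD35 tables list 58735 Ensembl identifiers, all human, of which 58724 have the start and end of GENCODE 29 on GRCh38, used for coordinates here. The MITD1 table lists symbols without lengths or coordinates. The ANKRD35 table has 6 further value columns that match no sample here and were left out.

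Multiplying FPKM by gene length gave whole multiples of a library's step for 100% of values in the RBCK1 and ANKRD35 tables (tolerance 0.01 reads), which gave reads per gene. In the MITD1 table, with lengths taken by symbol from the RBCK1 table, 28388 of 29848 genes (95.1%) were whole in all 6 libraries, among them 35 of the 46 members; other genes have no read count there. No pair of libraries of a group held identical values, and between any such pair the mean chi-square per gene (20 reads or more) was 2.12 or more, so each library counted once.

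The design allowed for counts; the tables hold FPKM, so each comparison was fitted with limma 3.58.1 (R 4.3.3), limma-trend on log2(FPKM + 1), on its own 6 libraries, with no replicate block. Changes are knockdown minus control on that scale, which understates changes of low genes. The fit was tested on simulated data. Named members were the 7 efflux genes, the called members of each comparison (the 8 with the smallest adjusted p where more were called), the highest member of each subfamily and 2 genes of each partner list in the comparison with most calls; ABCA3 in the RBCK1 and MITD1 comparisons, the genes at the testing limit, members tested but not called, and KCNJ8 were named beyond that rule after their values were seen. Some genes that the rule names are not reported here; counts, sums and medians include them, and figures leave them out. Members and lists were chosen with earlier results of these data known. Alternatives were a pseudocount of 0.1, no filter and a filter at 5 FPKM, quantile normalization, length correction, limma-voom on recovered reads, a replicate block, each library left out in turn, and, chosen after seeing the data, length and GC correction together. Promoters are RefSeq sequences on GRCh38.p14, matched by symbol for 35 of 45 members; 6 motifs were searched on both strands (the GC box GGGCGG, the CCAAT box, the TATA box TATAAA, the E-box CACGTG, the antioxidant response core TGACNNNGC and the AP-1 site TGANTCA).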

Additional observations from a re-analysis of the deposited data

How the results depend on the processing

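With RBCK1 knockdown 5 members were higher in the main fit and 4 lower; the lower count was 2 with quantile normalization, 6 with length correction and with limma-voom, 5 (beside 6 higher) with length and GC correction, and 2 to 4 on leaving out a library. ABCC5, never called, had a log2 change of −0.01 in the main fit and −0.042 to 0.020 on leaving out a library, positive without shRBCK1 replicate 2 (0.018) or shcontrol replicate 3 (0.020). With ANKRD35 knockdown the 1 member called higher became 0 with no filter, with limma-voom on recovered reads and with the replicate block, 2 with the 5 FPKM filter and with quantile normalization, 3 with length correction, 7 with length and GC correction, and 0 to 2 on leaving out a library; the 6 lower became 3 with the 5 FPKM filter, which tests fewer members. Genes called there, 4312, ranged from 2267 to 6536 on leaving out a library, the most without siANKRD35 replicate 2. The median log2 change of the efflux members there, −0.60, was −0.81 with a pseudocount of 0.1, −0.20 with no filter, −0.74 with the 5 FPKM filter and −0.86 with limma-voom. The filters changed which members entered that median, not the log2 change of any member. No filter added ABCC2 and ABCG2, and the 5 FPKM filter left out ABCB1 and ABCC5. With MITD1 knockdown that median, −0.06, was 0.070 with the 5 FPKM filter, −0.023 with quantile normalization, −0.11 with length correction, −0.13 with length and GC correction and 0.10 with limma-voom; where the alternative's construction does not show it, the cause was not tested. In the ANKRD35 comparison 53.5% of calls were higher, against 63.7% with the 5 FPKM filter, 44.1% with quantile normalization and 46.2% with limma-voom. ABCC1, ABCC3, ABCB1, ABCC9 and ABCA3 with ANKRD35 knockdown, ABCD3, ABCA1, ABCA2 and ABCE1 with RBCK1 knockdown, and ABCC10, ABCF3, ABCD3, ABCC3, ABCA1 and ABCB8 with MITD1 knockdown were called in every setting that tested them. For ABCB1 these settings are no independent support. Apart from the fit with no filter, it entered each of them through its control libraries alone. Same-numbered libraries had deviations correlated at −0.01, 0.01 and 0.03 in the RBCK1, 0.18, 0.11 and −0.09 in the ANKRD35 and 0.10, 0.03 and 0.00 in the MITD1 comparison. Differently numbered libraries ran from −0.03 to 0.02, from −0.22 to 0.14 and from −0.08 to 0.04 in the same order. Whether same-numbered libraries shared a batch cannot be told from so few replicates. With the replicate block, 5 members were higher and 3 lower with RBCK1, 0 and 6 with ANKRD35 and 3 and 6 with MITD1 knockdown; ABCC3 (RBCK1, adjusted p = 0.0514), ABCF3 (ANKRD35, adjusted p = 0.0531) and ABCA3 (MITD1, adjusted p = 0.0803) lost their calls in limma. Depth limits members under 1 FPKM, such as ABCC2 with 107 and 154 reads in shRBCK1 and shcontrol libraries.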

Other observations

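Family members below the testing limit were fitted with no filter as well, in which 1 of 20 passed with RBCK1, 1 of 19 with ANKRD35 and 1 of 21 with MITD1 knockdown at a limma adjusted p under 0.05 (2.67%, 1.74% and 8.71% of all genes below the limit passed). ABCC9 had a log2 change of −0.22 with RBCK1 knockdown (adjusted p = 0.0230). ABCA12, which carries glucosylceramide in keratinocytes, averaged 0.190 ± 0.0056 FPKM in siANKRD35 and 0.744 ± 0.12 FPKM in control libraries (log2 change −0.55, adjusted p = 0.0105). ABCB9, a lysosomal peptide transporter, averaged 0.617 ± 0.029 FPKM in siMITD1 and 1.02 ± 0.050 FPKM in control libraries (log2 change −0.32, adjusted p = 0.00286); it shares exonic bases with ARL6IP4 and OGFOD2 on the opposite strand. A share of 54.7% of the exonic bases of ABCB6 and 45.8% of those of ABCF2 also belong to a gene on the same strand, and pseudogene copies of ABCC6 and ABCB10 reached 0.728 and 0.842 FPKM in the ANKRD35 table, so values of ABCB6, ABCF2, ABCC6 and ABCB10 may hold or lack shared reads.

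TAP1 and TAP2, the peptide transporter of antigen presentation, are ABC proteins whose symbols fall outside the family rule. TAP1 measured 21.4, 22.4 and 21.9 FPKM in shRBCK1 libraries, against 110, 109 and 110 FPKM in shcontrol libraries (log2 change −2.27, limma adjusted p = 4.08e-09). TAP2 averaged 6.19 ± 0.14 FPKM in shRBCK1 and 14.5 ± 0.68 FPKM in shcontrol libraries (log2 change −1.104, limma adjusted p = 1.7e-06). Both log2 changes exceeded in size that of every tested family member. In that comparison 8 of 10 peptide loading genes fell (median log2 change −0.47), beside 24.9% of all tested genes called lower. B2M was among the 8, at 168 ± 5.0 FPKM in shRBCK1 and 315 ± 6.0 FPKM in shcontrol libraries. With ANKRD35 knockdown 5 of 10 fell (median −0.23), TAP1 and TAP2 not among them, and with MITD1 knockdown 2 of 7 rose and 2 fell (median 0.10). Over all tested genes, 16.9% were called lower with ANKRD35 knockdown, and 30% higher and 35.6% lower with MITD1 knockdown. TAP1 and TAP2 were at 0.0607 FPKM or less in every library of the MITD1 table; what set this was not tested.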
